A study of Mus musculus with 2 samples.

Results

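MEF2A, MEF2B, MEF2C, MEF2D, CREB1, CREM, CRTC1 and SRF are nuclear factors and a coactivator through which neurons turn synaptic activity into transcription. Their 8 genes (Mef2a, Mef2b, Mef2c, Mef2d, Creb1, Crem, Crtc1 and Srf) were taken by name from the 21938 protein-coding genes of GENCODE release M21, and all 8 were found there. Open chromatin was read at every annotated transcription start site (TSS) with 500 bp on both sides, and in each gene body with 50 kb on both sides. The assay was DNase-seq, in which DNase I cuts DNA that is not covered by nucleosomes and the cut ends are sequenced. The tissue was the left cerebral cortex of male mice aged 2 months of the strain B6CASTF1/J, an F1 cross between C57BL/6J and CAST/EiJ. The study has 2 samples, both of 1 group and labelled as biological replicates 1 and 2, with no other genotype, tissue, age or treatment. The labels number them as different males and give both the same donor record, so they were taken as separate animals on the labels' word alone. The values below therefore compare genes, start sites and sequences within 1 tissue, and the 2 replicates with each other, and no test between conditions was possible.

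CREB1 and CREM are leucine zipper proteins that bind the cAMP response element (CRE). When kinases of the cAMP and calcium pathways phosphorylate CREB1 it recruits the acetyltransferases CBP and p300, and CRTC1, once dephosphorylated by calcineurin, enters the nucleus and adds to its activity. Crem has an internal promoter whose product, ICER, lacks the activation domain and represses CRE-driven genes. SRF binds the CArG box together with ETS-type ternary complex factors or with the actin-sensing myocardin-related factors, and SRF sites drive immediate early genes. The MEF2 proteins belong to the same MADS-box class as SRF, bind an A/T-rich motif, are held in check by class IIa histone deacetylases and shape synapse number. MEF2C is the member best known from cortical development.

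The regions that carried the results are shown first, from mm10 and read 5′ to 3′ on the strand of the gene. All sequences and motif matches are those of this reference, and the CAST/EiJ alleles of the F1 mice were not examined. The first pair is the Srf promoter at chr17:46556201-46556400, minus strand, which ends 26 bp before the annotated start of the gene. In the first line capitals mark 2 CArG boxes, the motif of SRF itself, and 1 match to the CRE core TGACG. In the second line, of the same stretch, capitals mark the shared footprints. Footprints are short runs of bases protected from cutting inside an open region. A shared one is the joined span of footprints of both replicates that overlap by at least 1 bp. A base in that span can therefore lie in a footprint of 1 replicate alone. The capitals of both lines coincide at the CRE core and nowhere at the CArG boxes.
Srf promoter, motifs in capitals: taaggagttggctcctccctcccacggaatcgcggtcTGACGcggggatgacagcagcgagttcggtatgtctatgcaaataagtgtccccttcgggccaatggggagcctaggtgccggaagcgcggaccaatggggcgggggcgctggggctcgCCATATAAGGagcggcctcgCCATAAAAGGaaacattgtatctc
Srf promoter, shared footprints in capitals: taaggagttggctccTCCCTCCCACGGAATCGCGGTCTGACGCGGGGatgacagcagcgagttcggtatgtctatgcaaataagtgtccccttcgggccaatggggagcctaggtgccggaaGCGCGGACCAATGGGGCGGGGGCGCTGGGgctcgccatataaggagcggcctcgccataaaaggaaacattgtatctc

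The second pair is the region upstream of Mef2d at chr3:88138341-88138580, plus strand. It was the tallest distal region of all 8 loci by geometric mean height of both replicates and the only distal region among them with a full CRE, TGACGTCA. Capitals mark the full CRE in the first line and the shared footprints in the second. A shared footprint took in the first bases of the CRE and stopped before its last letters.
Mef2d upstream region, full CRE in capitals: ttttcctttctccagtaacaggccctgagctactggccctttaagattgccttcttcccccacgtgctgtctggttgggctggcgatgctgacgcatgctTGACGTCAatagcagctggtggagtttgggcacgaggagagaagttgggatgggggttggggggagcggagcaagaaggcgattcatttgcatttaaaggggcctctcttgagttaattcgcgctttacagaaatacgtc
Mef2d upstream region, shared footprints in capitals: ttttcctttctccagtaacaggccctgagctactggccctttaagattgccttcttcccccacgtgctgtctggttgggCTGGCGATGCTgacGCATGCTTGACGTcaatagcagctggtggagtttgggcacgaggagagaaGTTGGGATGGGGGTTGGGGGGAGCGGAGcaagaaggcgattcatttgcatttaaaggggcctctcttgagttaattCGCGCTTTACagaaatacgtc

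The next 3 are the tallest distal regions of Mef2c and Crtc1, shown with their shared footprints in capitals. The region downstream of Mef2c is chr13:83715061-83715300, the intronic region of Mef2c is chr13:83654981-83655180, both plus strand, and the intronic region of Crtc1 is chr8:70418061-70418300, minus strand. The downstream region of Mef2c held 5 shared footprints, more than any other distal region of the loci. 1 of them was 51 bp long, a length that no shared footprint in the regions of the 8 genes exceeded and that 1 in the Mef2a promoter also had.
Mef2c downstream region: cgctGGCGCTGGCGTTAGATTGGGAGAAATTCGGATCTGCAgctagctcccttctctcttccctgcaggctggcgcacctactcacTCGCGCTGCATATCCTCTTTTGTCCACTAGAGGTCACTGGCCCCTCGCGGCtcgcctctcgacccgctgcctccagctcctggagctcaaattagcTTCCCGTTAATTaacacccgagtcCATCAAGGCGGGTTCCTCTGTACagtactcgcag
Mef2c intronic region: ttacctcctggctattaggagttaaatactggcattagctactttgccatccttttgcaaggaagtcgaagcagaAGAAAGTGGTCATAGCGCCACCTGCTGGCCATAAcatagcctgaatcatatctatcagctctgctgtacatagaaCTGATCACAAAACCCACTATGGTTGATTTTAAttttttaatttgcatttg
Crtc1 intronic region: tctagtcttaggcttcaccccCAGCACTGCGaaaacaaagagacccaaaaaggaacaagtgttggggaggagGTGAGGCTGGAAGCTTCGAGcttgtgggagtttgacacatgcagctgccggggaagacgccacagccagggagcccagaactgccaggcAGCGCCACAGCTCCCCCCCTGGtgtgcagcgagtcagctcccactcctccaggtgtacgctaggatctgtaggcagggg

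The last 2 are short stretches over transcribed 5′ ends, shown because each holds a motif bound by a protein of the gene's own family. At Mef2a, chr7:67372841-67372870 on the minus strand, capitals mark a match to the MEF2 motif. At Creb1, chr1:64532898-64532926 on the plus strand, capitals mark a CRE core.
Mef2a 5′ end: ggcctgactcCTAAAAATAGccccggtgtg
Creb1 5′ end: agtgttggtgagTGACGcggcggaggtgt

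Replicate 1 had 63928 peaks and replicate 2 had 76440 peaks after overlapping intervals were joined, with 280338 and 245020 footprints. Peak heights are a signal as the authors gave it, and their scaling and the sequencing depth are unknown. Over 12324 genes open in both replicates the median log2 ratio of promoter heights, replicate 1 over replicate 2, was 0.77, with quartiles of 0.49 and 1.02. Of the defining markers of cortical cell types, 2 of 5 excitatory neuron, 2 of 5 inhibitory neuron, 4 of 5 astrocyte and 3 of 5 oligodendrocyte genes had a promoter peak in both replicates. Over all protein-coding genes it was 56.2%. With the longer of the 2 peak lists of each replicate the counts were 4, 5, 5 and 3 of 5. A peak in both replicates was found for 0 of 4 microglial and 0 of 4 endothelial genes and for 0 of 5 genes of other tissues, with either kind of list. These counts are no measure of the shares of cell types. Each peak adds up the cells of the whole tissue, and a region open in few cells cannot be told apart from one that is weakly open in many.

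All 8 genes had a promoter peak in both replicates (8 of 8), against 56.2% of all protein-coding genes. With the longer peak lists the count was again 8 of 8, against 61.0%. The 8 genes have 87 distinct annotated TSSs, of which 44 (50.6%) lay within 500 bp of a peak in both replicates, against 44.2% of all TSSs of protein-coding genes. That share is close to the background, and neighbouring TSSs share peaks, so it is no result about these genes. Of the 8 promoters, 4 (Creb1, Mef2b, Srf and Crem) stood above the upper quartile of promoter heights in both replicates, which was 5.51 in replicate 1 and 3.51 in replicate 2. Mef2c was the only 1 of the 8 below the median in both replicates. The Mef2b peak in these counts lies over the start of another gene, and at its other start sites Mef2b had 0.799 in replicate 1 and 0.614 in replicate 2, below both medians.

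**Figure D1:**
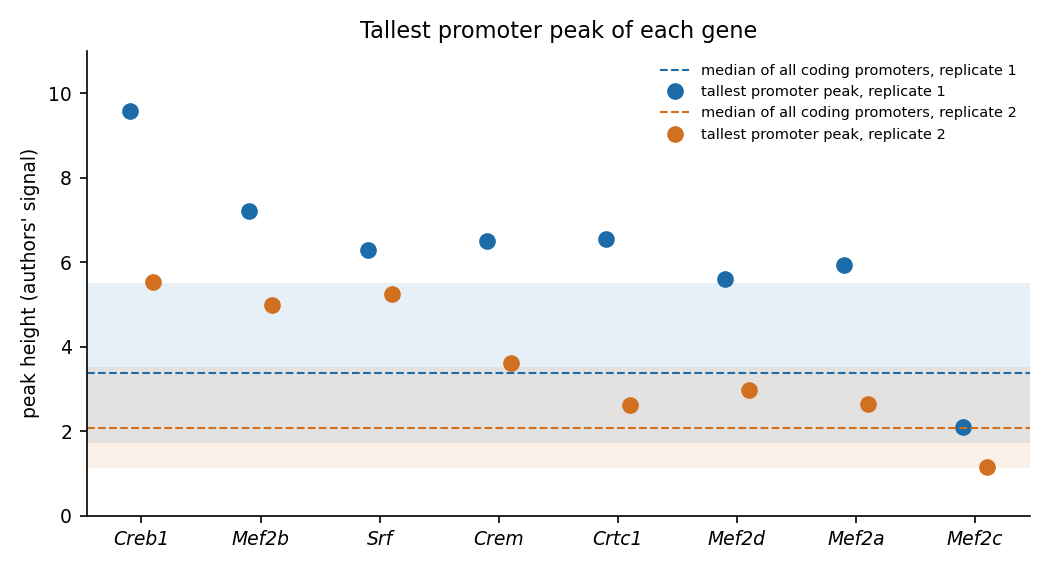
Height of the tallest promoter peak (authors' signal, linear axis from 0) for each gene in replicate 1 (blue) and replicate 2 (orange). Dashed lines are the medians and shaded bands the quartiles of all protein-coding genes with a promoter peak in that replicate; Creb1 reaches 9.57 and 5.52, and Mef2c lies below both medians at 2.10 and 1.14.

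Creb1 (ENSMUSG00000025958.14, chromosome 1, 64532645 to 64604548), the archetypal cAMP- and calcium-responsive activator, had the tallest promoter peak of the 8. Its height was 9.57 in replicate 1 and 5.52 in replicate 2, at percentiles 97.5 and 91.9 of all open promoters of the same replicate. The peak at chr1:64532681-64533020 (both replicates joined) lay over a cluster of 8 TSSs that start 9 of the gene's 11 transcripts, and the lowest false discovery rate (FDR) of the cut rate within it was 1.6e-88 and 2.7e-74. The region held 7 shared footprints, the most of any promoter region of these genes. 1 of the 7 covered the CRE core shown above, and the other 2 CRE cores of the region lay in no footprint. The annotation places 2 further TSSs of Creb1 at 28.3 and 43.7 kb into the gene, each the start of 1 transcript that is not coding, and neither had a peak.

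Crtc1 (ENSMUSG00000003575.13, chromosome 8, 70382355 to 70439579), the calcineurin- and SIK-regulated coactivator of CREB1, had a promoter height of 6.54 in replicate 1 and 2.63 in replicate 2. Its log2 ratio of 1.32 was the widest gap between replicates among the 8 genes and above the upper quartile of 1.02 over all open promoters. The gene stood at percentile 84.0 in replicate 1 and 61.2 in replicate 2, so its place in the order is uncertain. The peak covered the 5′ pair of TSSs that start 3 of 5 transcripts, and the internal TSSs at 8.29 and 36.8 kb had none. The region held 3 shared footprints and no match to the CRE core, the CArG box, the MEF2 motif or AP-1.

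Srf (ENSMUSG00000015605.6, chromosome 17, 46548329 to 46556175) had 6.28 in replicate 1 and 5.25 in replicate 2, the smallest gap between replicates among the tallest peaks of the 8 genes (log2 ratio 0.26). The peak, at chr17:46556201-46556460, began 26 bp upstream of the TSS in replicate 1 and 46 bp upstream in replicate 2. A much lower and wider region of 0.915 and 0.743 lay downstream of the start, inside the gene, and had 0 shared footprints over 1125 bp. The tall region held 3 shared footprints. 1 covered the CRE core, and another held a CCAAT box, CCAAT, and a GC box, GGGCGG, side by side. These motifs, with an ETS core, an NRF1 core, a CTCF core and an E-box, were searched after the data were seen. Of all shared promoter regions 36.0% hold a CCAAT box and 65.4% a GC box. Of all such matches in those regions 15.3% and 39.6% lay inside shared footprints. The tall Srf region also held another CCAAT box and an ETS core, neither of them inside a shared footprint. Of the 2 CArG boxes, the one nearer the start touched a footprint in 1 replicate only and the other touched none. The 3 internal TSSs of Srf, in a cluster that begins 4.38 kb into the gene, had no peak in the shorter lists and one of 0.488 in the longer list of replicate 1.

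Mef2a (ENSMUSG00000030557.17, chromosome 7, 67231163 to 67372858) had promoter heights of 5.94 and 2.65 in replicates 1 and 2, and Mef2d (ENSMUSG00000001419.17, chromosome 3, 88142372 to 88172086) had 5.60 and 2.98. Their log2 ratios were 1.17 and 0.91. The 2 genes were near each other and near Crtc1 in both replicates, and the order among these 3 was not resolved by the spread between replicates. The MEF2 motif of Mef2a shown above spans an annotated TSS at 67372858, and no footprint of either replicate touched it. In Mef2a 4 internal clusters of TSSs, from 55.9 to 107 kb into the gene, had no peak in the shorter lists, and each starts 1 or 2 transcripts. In Mef2d an internal TSS at 20.6 kb had a peak of 0.954 in replicate 1, which was matched at 0.723 in the longer list of replicate 2. Another at 25.9 kb had a peak of 0.56 in the longer list of replicate 2 alone.

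Mef2b (ENSMUSG00000079033.10, chromosome 8, 70139711 to 70167488), the MEF2 member studied mainly in B cells, ranked second by geometric mean (second in replicate 1 and after Srf in replicate 2) among the peaks within 500 bp of a TSS, but that peak covers the start of another gene. Its height was 7.21 in replicate 1 and 4.98 in replicate 2. The peak at chr8:70139121-70139480 lay 271 and 231 bp from the first Mef2b TSS and directly over the TSS of Rfxank, a gene for a subunit of the RFX complex that drives MHC class II genes, while a TSS of Borcs8 lay in the same window. That first Mef2b TSS starts 1 of the gene's 5 transcripts. The other 4 start 13.1 kb further on, where the peak reached 0.799 and 0.614, at percentiles 8.15 and 8.28 of open promoters. There the lowest FDR was 1.6e-05 and 3.6e-05, with 2 footprints in replicate 1 and 0 in replicate 2. Counted by TSSs away from those of other genes alone, a choice made after the data were seen, Mef2b would be the lowest of the 8, at a geometric mean of 0.701, against 1.55 for Mef2c.

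Mef2c (ENSMUSG00000005583.16, chromosome 13, 83504034 to 83667080) is the gene of this group with the most distinct TSSs, 27 in 9 clusters, for 31 transcripts over 163 kb. The cluster that opens the gene in the annotation, at 83504034 to 83504240 on chromosome 13, starts 6 transcripts and had no peak in any of the 4 lists. It also had no stretch with an FDR under 0.05. The open cluster lay 19.4 kb into the gene, at 83523473 to 83524920, with 11 TSSs of 11 transcripts. Its tallest peak was 2.10 in replicate 1 and 1.14 in replicate 2, at percentiles 31.0 and 25.4. In replicate 1 the cluster held 3 separate peaks of 1.05, 1.09 and 2.10, and in replicate 2 a single peak of 484 bp. The joined region of 644 bp had 7 and 6 footprints, of which 1 was shared. A cluster at 68.3 kb had peaks only in the longer lists, of 0.553 and 0.533, and one at 149 kb had a peak of 0.669 in replicate 2 alone. The 5 remaining clusters, with 4 TSSs at 69.6 kb and 3 at 71.1 kb among them, had no peak in either list of either replicate.

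**Figure D2:**
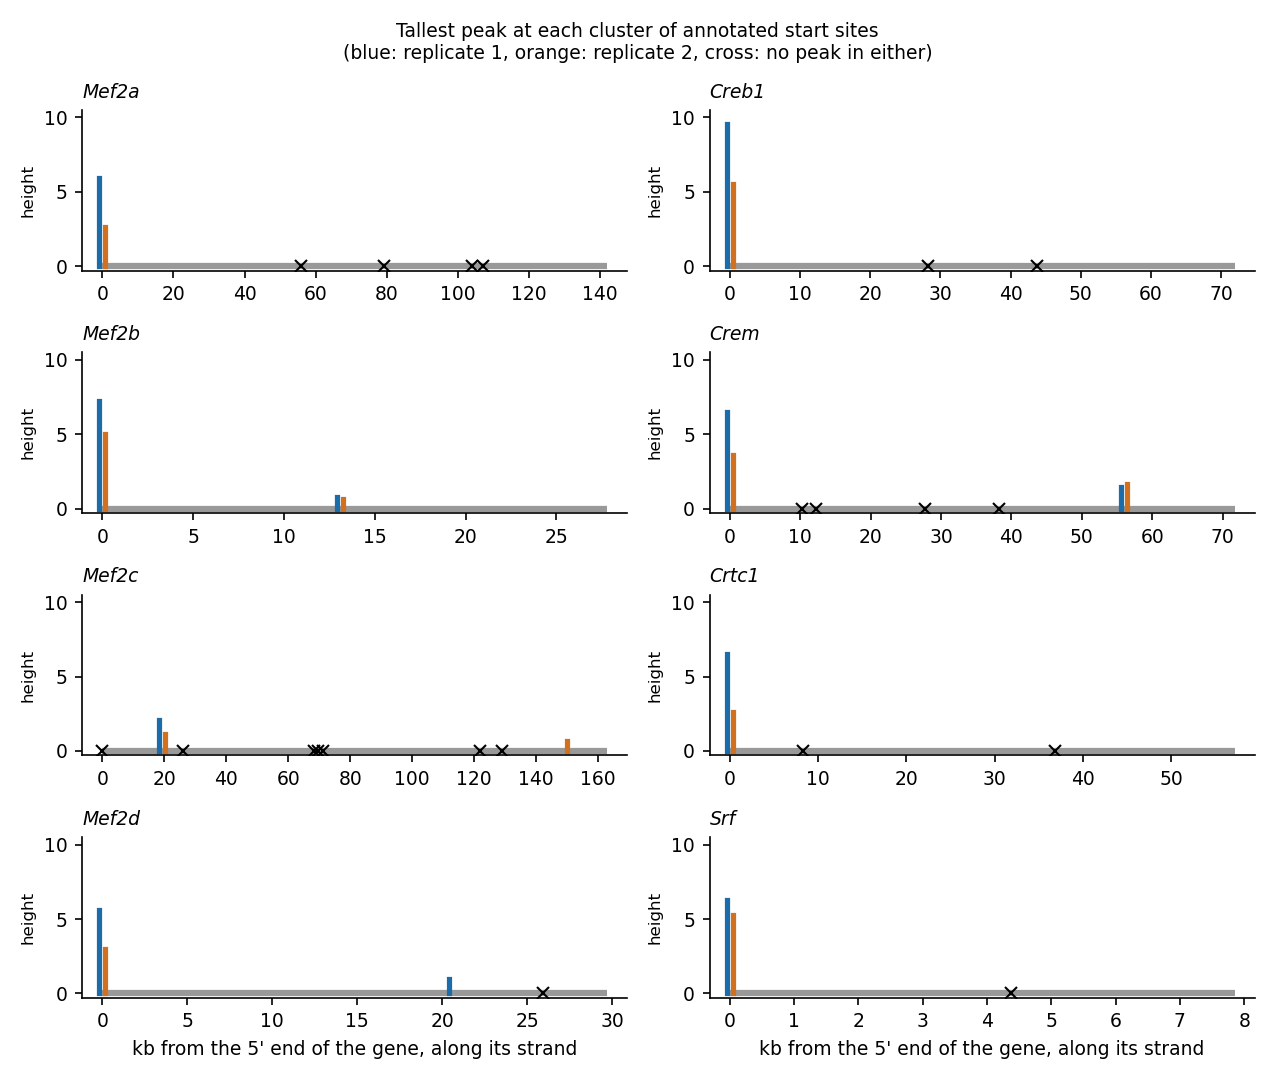
Tallest peak (authors' signal) at each cluster of annotated start sites, against the distance in kb from the 5′ end of the gene along its strand, in replicate 1 (blue) and replicate 2 (orange). Crosses mark clusters with no peak in either shorter list and grey bars the gene body; Mef2c has its peak at 19.4 kb and none at its 5′ end, and Crem has a second open cluster at 56.0 kb.

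Over the 8 genes the order by geometric mean height was Creb1, Mef2b, Srf, Crem, Crtc1, Mef2d, Mef2a and Mef2c. Creb1 was first and Mef2c last in both replicates. The ranges of the 2 replicates overlapped for every pair of neighbours in this order except Mef2a and Mef2c. Replicate 1 was the higher in 8 of 8, as it was over most open promoters of the genome.

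Crem (ENSMUSG00000063889.16, 3266048 to 3337748) had a tall promoter and a second open promoter deep inside the gene (chromosome 18). Of the other 7 genes only Mef2b also had 2 clusters of TSSs with a peak in both replicates. The gene has 39 transcripts from 26 TSSs in 6 clusters. The 5′ cluster, at 3337063 to 3337748, starts 11 transcripts and had heights of 6.51 in replicate 1 and 3.62 in replicate 2. The internal cluster lies 56.0 kb downstream, at 3281078 to 3281769, and starts 7 transcripts, all coding and all of the basic set. The known ICER promoter lies inside Crem, and whether these TSSs are that promoter is not stated in the annotation used here. The internal peak had heights of 1.47 and 1.63, at percentiles 21.1 and 39.1. It was the only open cluster of the 10 with the lower value in replicate 1 (log2 ratio -0.15, against a median of 0.77). The lowest FDR was 1.0e-21 and 1.6e-43. The 4 clusters between them, at 10.2, 12.3, 27.8 and 38.2 kb, start 21 transcripts in all and had no peak and no stretch under an FDR of 0.05. The window of the 5′ cluster also takes in a TSS of Gm6225, a predicted gene, 583 bp from the tallest peak, but only the Crem TSS at 3337063 lies within 500 bp of the Gm6225 start, and leaving that Crem TSS out does not change the Crem height.

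The internal Crem cluster was also the place where CRE matches and footprints met. Its regions, of 520 and 279 bp, held 3 full CREs, and all 3 lay wholly inside shared footprints of 20 to 23 bp. Of these 2 were in the main region (3281101 to 3281108 and 3281168 to 3281175) and 1 in a low flanking region of 0.436 and 0.493. The 5′ promoter region of Crem held 0 full CREs and 6 shared footprints. The main internal region had 8 footprints in replicate 1 and 11 in replicate 2. Among the 8 genes Crem alone had a full CRE in a TSS window (1 of 8), against 4.84% of all protein-coding genes. Crem has 26 TSSs, against a mean of 4.26 over those genes. Per window it was 6 of 87 (6.90%), against 2.85%, and all 6 windows were of Crem.

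Full CREs inside open regions lay in footprints across the whole genome as well. Of 584 full CREs in all shared promoter regions 454, or 77.7%, lay wholly inside a shared footprint, and of 162 in all shared distal regions 87, or 53.7%. The CREs of Crem, 3 of 3, therefore did as most do. CArG boxes and MEF2 motifs did not: 4.82% of 166 CArG boxes and 5.29% of 170 MEF2 motifs in shared promoter regions were inside a shared footprint, and 2.60% of 808 AP-1 sites. The letters searched on both strands were TGACGTCA for the full CRE, TGACG for the CRE core, which lies within the full CRE on each strand, and TGANTCA for AP-1. The CArG box is CC and GG around 6 letters of A or T, and the MEF2 motif has 4 letters of A or T between pairs of TA with a pyrimidine before and a purine after. A match is a run of letters and not a measured site, and the footprint lists depend on how the authors called them.

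**Figure D3:**
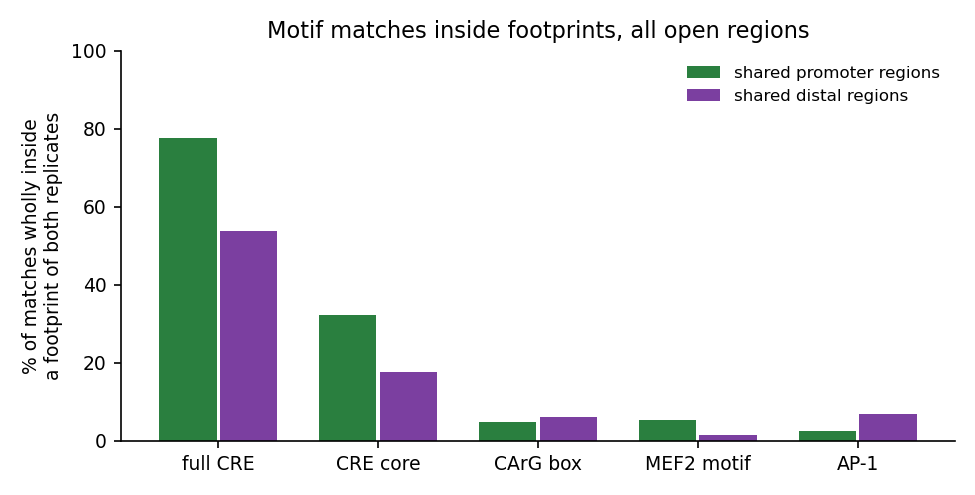
Percent of motif matches that lay wholly inside a shared footprint, in all shared promoter regions (green) and all shared distal regions (purple) of the genome. A shared footprint is the joined span of overlapping footprints of both replicates, which is what the axis label means. Full CREs reach 77.7% and 53.7%, and CArG boxes, MEF2 motifs and AP-1 sites stay under 7% in both.

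Shared promoter regions held a full CRE in 3.66% of 15227 cases, a CRE core in 33.6%, a CArG box in 1.06%, a MEF2 motif in 1.1% and an AP-1 site in 4.95%. The 13 shared promoter regions of the 8 genes held a full CRE in 2, both of Crem, a CRE core in 6, CArG boxes in 1, a MEF2 motif in 2 and AP-1 in 0. Counted over TSS windows, 5 of 8 genes had a MEF2 motif in any window, against 23.4% of all genes, and 2 of 8 had a CArG box, against 10.8%. The 8 genes average 10.9 TSSs, against 4.26 over all protein-coding genes, chiefly through Mef2c and Crem, while Mef2b, Crtc1 and Srf have fewer than 4.26. Per window the figures were 26.4% for the MEF2 motif and 2.30% for the CArG box, against 9.54% and 4.18%. Overlapping windows of Mef2c and Crem count the same letters several times. Of the 13 matches to the CRE core in these promoter regions 8 lay inside shared footprints. Over all shared promoter regions it was 32.2% of 7221 matches. Of the 8, 6 belonged to the full CREs of Crem, each counted on both strands, so the count rests largely on Crem. The remainder were the CRE cores of Creb1 and Srf shown above.

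The open start sites were richer in CpG than the closed ones. The 87 TSSs fell into 33 clusters, of which 10 had a peak in both replicates, 2 in 1 replicate and 21 in neither. CpG observed over expected had a median of 0.776 (0.354 to 0.999) in the 10 open clusters and 0.262 (0.0459 to 0.469) in the 21 without a peak. The ranges overlapped through 2 open clusters, the internal start of Crem at 0.422 and the own start of Mef2b at 0.354. These were also the 2 lowest open clusters by height in replicate 1, whereas in replicate 2 the 2 lowest were the own start of Mef2b (0.614) and the open cluster of Mef2c (1.14). The 5′ start of Mef2c, with no peak, had 0.318, and its open cluster 0.654. GC content had a median of 61.8% in the open clusters and 40% in those without a peak.

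**Figure D4:**
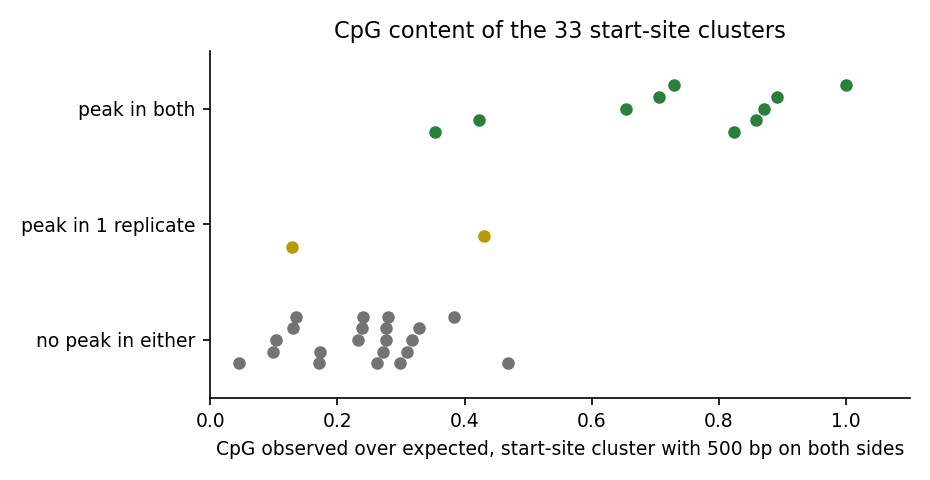
CpG observed over expected of each of the 33 clusters of start sites with 500 bp on both sides, by whether a peak was found in both replicates, in 1 or in neither; the vertical scatter within a class has no meaning. Open clusters run from 0.354 to 0.999 and closed ones from 0.0459 to 0.469.

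Distal open chromatin, over 2000 bp from every annotated TSS, was spread unevenly over the loci. A shared distal region was found in 6 of 8 loci, against 65.6% of all protein-coding loci. The loci held 24 shared regions in all, of which 17 had a TSS of the same gene as the nearest coding TSS and 10 lay in the body of the gene. No shares over all loci are given beside these counts, so they only describe the regions. Crtc1 had 6 shared regions, Mef2a 5, Mef2b, Mef2c and Mef2d 4 each, Creb1 1, and Crem and Srf 0. All loci had a median of 1 and an upper quartile of 3, and 5.17% of them had at least as many as Crtc1. Per 100 kb of locus the values were 3.82 for Crtc1, 3.13 for Mef2b, 3.08 for Mef2d, 2.07 for Mef2a, 1.52 for Mef2c and 0.582 for Creb1, against a median of 0.886. Of the 4 regions in the Mef2b locus 3 lay nearer to Nr2c2ap or Slc25a42.

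**Figure D5:**
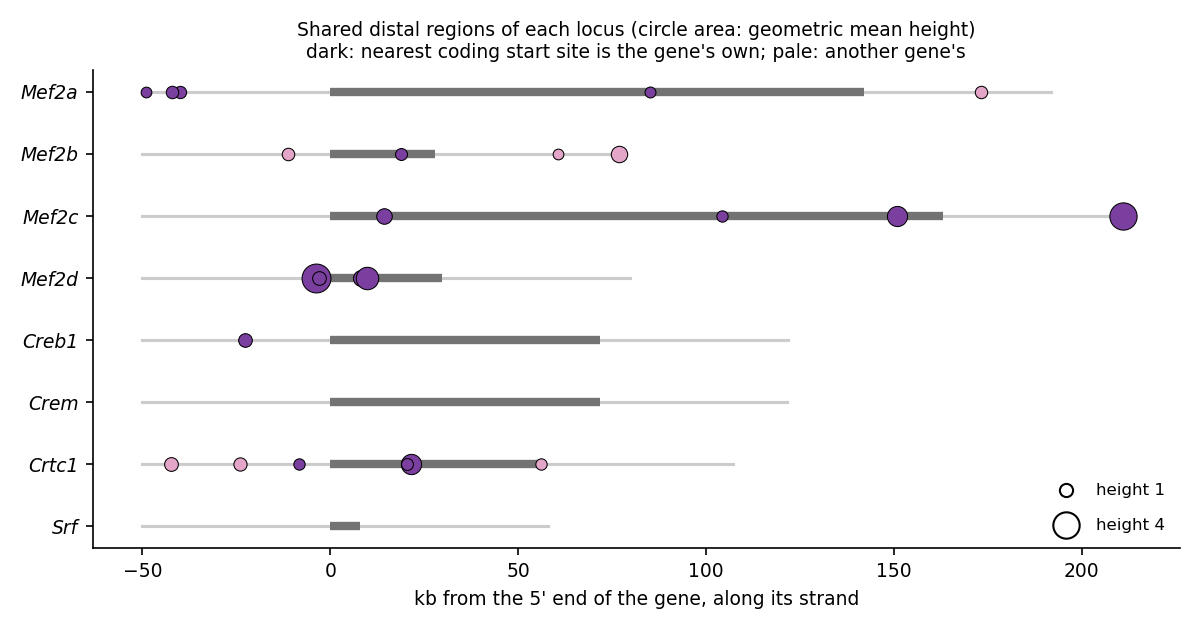
Shared distal regions of each locus by distance in kb from the 5′ end of the gene, along its strand; dark grey is the gene body, light grey the 50 kb on both sides, and circle area grows with the geometric mean height. Dark circles are nearest to a start site of the gene itself and pale ones to another gene; the largest are at Mef2d (4.80) and beyond the 3′ end of Mef2c (4.28).

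Mef2d and Mef2c had the tallest distal regions. The Mef2d region shown above, 3.8 kb upstream of the nearest TSS, had heights of 5.02 in replicate 1 and 4.59 in replicate 2, at percentile 99.6 of the 23895 shared distal regions. In replicate 2 it was taller than the Mef2d promoter itself, which had 2.98, and in replicate 1 it was lower than the promoter at 5.60. Its full CRE touched footprints of both replicates but was not wholly inside a shared one, and 0.653% of all shared distal regions hold a full CRE. An intronic region of Mef2d 9.9 kb into the gene had 3.36 and 2.5 (percentile 98.3), and another at 8.2 kb had 1.80 and 1.22. The median geometric mean of all shared distal regions was 0.856.

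The tallest region of the Mef2c locus lay outside the gene, 62.2 kb from the nearest Mef2c TSS, with 5.32 in replicate 1 and 3.44 in replicate 2 (percentile 99.5). This was more than the Mef2c promoter, at 2.10 and 1.14, and the ranges did not overlap. No other coding gene has a TSS in the locus, but a TSS of Gm48067, not a coding gene, lies nearer to the region, at 83687222. Inside the gene, the intronic region shown above, 151.0 kb from the 5′ end, had 2.55 and 2.12 (percentile 96.7) and one 14.4 kb from the 5′ end had 1.53 and 1.26. The region at 14.4 kb lies between the closed 5′ cluster and the open cluster of start sites. Neither of the Mef2c regions shown held a CRE core, a CArG box or a MEF2 motif, and an AP-1 match in the intronic one, at 83655097, touched no footprint. Of the motifs searched after the data were seen, the downstream region held a CCAAT box inside a shared footprint and the intronic one held none. All searches were for fixed letters, so other forms of these or other sites could be missed.

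By count of peaks, the replicates differed most in the low distal peaks of Mef2a and Mef2c, and in opposite directions. In the Mef2c locus replicate 1 had 4 distal peaks, all of them shared, and replicate 2 had 14, of which 10 had no partner. Those 10 had heights from 0.338 to 1.33, and 5 of them were in the longer list of replicate 1. In the Mef2a locus replicate 1 had 15, of which 10 had no partner, and replicate 2 had 6, of which 1 had none. The 10 of Mef2a were lower, with a median of 0.155, and 1 of them was in the longer list of replicate 2. Most of the 10 lay in a single stretch near the 3′ end of Mef2a, from 67234440 to 67239968, with heights of 0.082 to 0.466. Some of the 10 of Mef2c also lay side by side, from 83480530 to 83481560. The counts are therefore of called peaks and not of separate places. Creb1 had 1 distal peak in replicate 1 and 6 in replicate 2, of which 4 unmatched ones were in the longer list of replicate 1. Over the genome replicate 1 had 33897 distal peaks and replicate 2 had 49920. With the longer lists the shared regions numbered 11 at Mef2c, 11 at Crtc1 and 5 at Creb1. Each replicate is 1 library, of 1 male by its label, so a difference between animals and one between libraries cannot be told apart.

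Crtc1 had 1 tall distal region among its 6, the intronic one shown above, 21.4 kb from the 5′ end, with 2.38 in replicate 1 and 2.34 in replicate 2 (percentile 96.9). Its promoter, in contrast, had the widest gap between the replicates. The other 5 had geometric means from 0.742 to 1.09, and 3 of the 6 lay nearest to Klhl26 or Comp. The 5 of Mef2a had geometric means of 0.660 to 0.896, close to the genome's median, and 3 of them lay together upstream, at -40.1, -42.2 and -48.9 kb from the 5′ end. The tallest of Mef2b was 1.63 and 1.47, nearest to Slc25a42. The region of Creb1, 22.8 kb upstream, was the lower in replicate 1, with 0.786 against 1.45 in replicate 2. Of the 24 regions, 9 had the lower value in replicate 1. No share over all shared distal regions is given beside this count. Their median height was 0.894 in replicate 1 and 0.817 in replicate 2 over the whole genome.

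Footprints were counted in the same regions. The 13 shared promoter regions of the 8 genes, 5449 bp in all, held 35 shared footprints, or 0.642 per 100 bp, against 0.816 per 100 bp over all shared promoter regions. Of those 5449 bp, 1125 bp are the low, wide region of Srf, which held 0, so that 1 region lowers the density. The 24 shared distal regions, 5496 bp, held 45, or 0.819 per 100 bp, against 0.567 over all shared distal regions. The 80 shared footprints were 7 to 51 bp long with a median of 20 bp, against 19 bp over all. Creb1 (7), the 5′ region of Crem (6) and Mef2a (5) had most among the promoters. Of the 13 promoter regions 3 (23.1%) had 0, against 15.9% of all shared promoter regions. Of the 24 distal regions 2 (8.33%) had 0, against 18.7% of all shared distal regions. The number of footprints found can depend on the depth of cutting, which is unknown here, and its part was not tested.

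The genes that feed into these factors were open in most cases. Of 26 pathway genes 22 had a promoter peak in both replicates, and 24 with the longer lists, against 56.2% and 61.0% of all genes. Among the CREB partners it was 5 of 5, with Crtc2, a coactivator related to Crtc1, the tallest at 6.55 in replicate 1 and 4.65 in replicate 2. Among the CREB kinases and CRTC regulators it was 6 of 7, with Rps6ka5, the gene of the nuclear kinase MSK1, at 9.05 and 8.12. Camk4, a nuclear calcium/calmodulin kinase, had 1.11 in replicate 1 and in replicate 2 only a peak of 0.473 in the longer list. Among the MEF2 regulators it was 7 of 8, with Hdac4, a class IIa deacetylase gene, at 11.8 and 7.62. Hdac7, of the same class, had 1.19 in replicate 1 and only a longer-list peak of 0.5 in replicate 2. Among the SRF cofactors it was 4 of 6. Mrtfa, for an actin-sensing cofactor, had 8.83 and 7.81, and Elk3, for a ternary complex factor, had 0.522 in replicate 1 alone. Myocd, the cofactor of heart and smooth muscle, had no peak in either shorter list and one of 0.332 in the longer list of replicate 1.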

How the data were processed

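DNase-seq of 2 replicates of 1 group was taken from the deposited files. Per replicate, the deposited files are 2 peak lists of the authors with a height (a signal, scaling not given in the sources used here), 1 list of footprints whose value column, as deposited, holds 1 constant and was not used as a score, and 1 track of false discovery rates (adjusted p-values of the cut rate, listed where under 0.05 as deposited by the authors). All are on mm10 per the labels. The files hold no read counts, so the depth is unknown and no interval that needs it is given.

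The shorter list of each replicate was used and taken as the stricter one. The sources used here do not say how the 2 lists of a replicate differ. Overlapping intervals of a list were joined at the greatest height, a region was shared where both replicates overlapped by at least 1 bp, and TSSs within 1000 bp were joined into clusters. Shared regions and shared footprints span the joined intervals of both replicates and not only their common bases. Genes came from GENCODE release M21 and sequence from GRCm38.p6. Tools were Python 3.11.15, numpy 2.4.6, pysam 0.24.0, bedtools 2.31.1 and matplotlib 3.10.9. Interval and motif steps were tested on simulated data. The 8 genes are named in full; of the pathway lists, the tallest gene and every gene without a peak in both replicates; of the distal regions, the tallest. The genes, lists and motifs were chosen with earlier results of these data known. With 2 samples in 1 group no test was made, and values are set beside those of all protein-coding genes. Alternatives were the longer lists, other widths and overlaps, and 1 replicate alone.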

Additional observations from a re-analysis of the deposited data

How the results depend on the processing

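The count of genes with a promoter peak in both replicates was 8 in every alternative tried, and the count of TSSs ranged from 30 to 48, with 39 in the taller part of each list. The 30 are of 43 TSSs of basic coding transcripts alone. The number of shared distal regions was the least stable: it was 24, and became 48 with the longer lists, 11 with the taller part of each list, 14 with 20 kb on both sides of the gene and 10 in the gene body alone, and 41 to 48 with 1 replicate alone. It stayed at 24 with an overlap of 50% of the narrower interval and was 31 over 500 bp from a TSS. The 80 shared footprints became 73 with that overlap and 135 to 136 with 1 replicate alone. Matches to the full CRE, CArG box, MEF2 motif or AP-1 inside footprints numbered 3, and 7 when touching a footprint of either replicate was enough; matches to the CRE core went to 13, against 9. All 16 promoter heights from the longer lists or from 2000 bp on both sides of a TSS equalled the main values. Choices made after the data were seen left out start sites near other genes: taken TSS by TSS, Mef2b had 0.701, against 5.99, and Crem stayed at 4.85; taken by whole joined windows, Crem had 1.55 and Mef2b again 0.701. Both of these choices changed the height order: Mef2b, at rank 2 by geometric mean in the main order, fell below Mef2c, at 1.55. No paired analysis was possible because there is 1 group. The lists hold no depth, so a missing peak shows only that none was called.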
